A study of Mus musculus with 4 samples.

Results

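Bone marrow cells labelled ckit+ from an Rbm5 knockout mouse (KO) were compared with such cells from a wild-type mouse (WT), gene by gene and cell class by cell class. The comparison covers every cell with 500 or more genes, 1000 or more unique molecular identifiers (UMIs, one per captured RNA molecule) and no more than 10% mitochondrial UMIs. These numbered 26656 of the 51611 such cells in the 4 libraries of the study, 12948 of them WT and 13708 KO. The other 24955 cells were WT and Rbm5 knockout leukaemias driven by the MLL-AF9 fusion. No other allele or treatment is labelled for either c-Kit+ group, and the labels used here give no strain, age or sex for the mice. Both c-Kit+ libraries held UMIs of the Y-linked gene Ddx3y (6744 in WT, 7282 in KO) and almost none of Xist (6 and 5), the pattern of male cells. The series' design describes the c-Kit+ cells as the normal stem and progenitor counterpart of the leukaemia. Each group is 1 library, so nothing below is a test between genotypes. Intervals are at 95% and cover counting error only, not the spread between mice, and "past 1.5-fold" is a rule of size.

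Kit is the receptor for stem cell factor, carried at the surface of blood stem and progenitor cells and of mast cells, and antibodies to it are widely used to enrich them. Stem cells give rise to megakaryocytes, erythroid cells, lymphocytes and the granulocyte and monocyte lineages. Neutrophils pass through a stage that makes primary granules, with Mpo, Elane and Prtn3, then one that makes secondary granules, with Ltf, Camp and Ngp, before they leave the marrow. Rbm5 is an RNA-binding protein of the spliceosome that takes part in the choice of splice sites, and Rbm6 and Rbm10 are its close relatives.

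The WT library held 93778544 UMIs in these cells and the library labelled KO held 101106754. The median cell had 5352 UMIs and 1727.5 genes in WT, and 5428.5 UMIs and 1787 genes in KO. Mitochondrially encoded genes took 0.737% and 0.687% of UMIs, ribosomal protein genes 12.1% and 13.3%, and haemoglobin genes 0.807% and 0.997%, in that order. The 2 libraries had 60 cell barcodes in common, 52 of them passing in both.

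By their markers, more of these cells were neutrophil-like than stem-like. Kit itself stood at 45.8 CPM (a gene's UMIs, scaled to the same library sum) in WT and 43.9 CPM in KO, and 17.3% of WT cells and 18.1% of KO cells had a Kit UMI. When each cell was thinned to 2000 UMIs, these shares were 6.13% and 6.16%. The class named for stem and multipotent progenitors is 1 cluster that raised 6 of 10 of its markers and is led by the megakaryocyte gene Pf4. In this class 69.7% of WT cells and 66.4% of KO cells had a Kit UMI. In late neutrophil-like cells, which should lack Kit, 3.31% and 2.75% did. The median depths were 8399 and 8060 UMIs in the stem-like class and 2849.5 and 2731 in the late neutrophil-like class. At 2000 UMIs per cell the shares were 32.7% and 27.6% in the stem-like class and 2.02% and 2.36% in late neutrophil-like cells. Free RNA can add a UMI to a cell that does not express a gene.

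Rbm5 (ENSMUSG00000032580, chromosome 9), the targeted gene, was not lower in the library labelled KO. It gave 7078 UMIs in WT and 9056 in KO, or 75.5 CPM and 89.6 CPM. The ratio was 1.19, with a counting interval from 1.15 to 1.22 and a log2 ratio of 0.24. Rbm5 was higher in KO in 12 of 12 cell classes, from 115 to 122 CPM in B lineage-like cells up to 54.7 to 92.8 CPM in basophil-like and mast-like cells. In the leukaemia pair Rbm5 was lower in the library labelled KO, at 160 CPM in WT against 116 CPM in KO. Which exons were deleted is not given in the sources used here, and a count of UMIs per gene read from the poly(A) end cannot show a deletion elsewhere in the transcript. The counts therefore do not check the genotype label, and each direction below is that of the library labelled KO over the library labelled WT. In the c-Kit+ pair Rbm6 (119 CPM in WT, 114 CPM in KO) and Rbm10 (27.1 and 26.4 CPM) differed by log2 ratios of -0.06 and -0.04. The 36 other measured genes within 1 Mb of Rbm5 had log2 ratios from -0.19 to 0.18, and 0 of them were past 1.5-fold.

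Most genes had nearly the same level in both libraries. The level filter, an average of at least 5 CPM, left 9555 genes, of which 9033 (94.5%) lay within 20% of each other. Of all 9555 genes 4547 (47.6%) were higher in KO and 5008 lower, the background for the list counts over all cells below. The median log2 ratio was -0.007 and the standard deviation over genes 0.15, with 1 CPM added to each level before taking logs. Past 1.5-fold were 25 genes higher in KO (0.262%) and 19 lower (0.199%), and 2-fold was passed by 6 and 3 of them. With the cell clusters given the same weights in both libraries (composition-matched sums), 20 genes were higher and 7 lower. With equal weight for each cell 46 were higher and 16 lower. In the leukaemia pair the standard deviation was 0.80, and 940 of 9901 genes were higher (9.49%) and 3480 lower (35.1%).

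**Figure D1:**
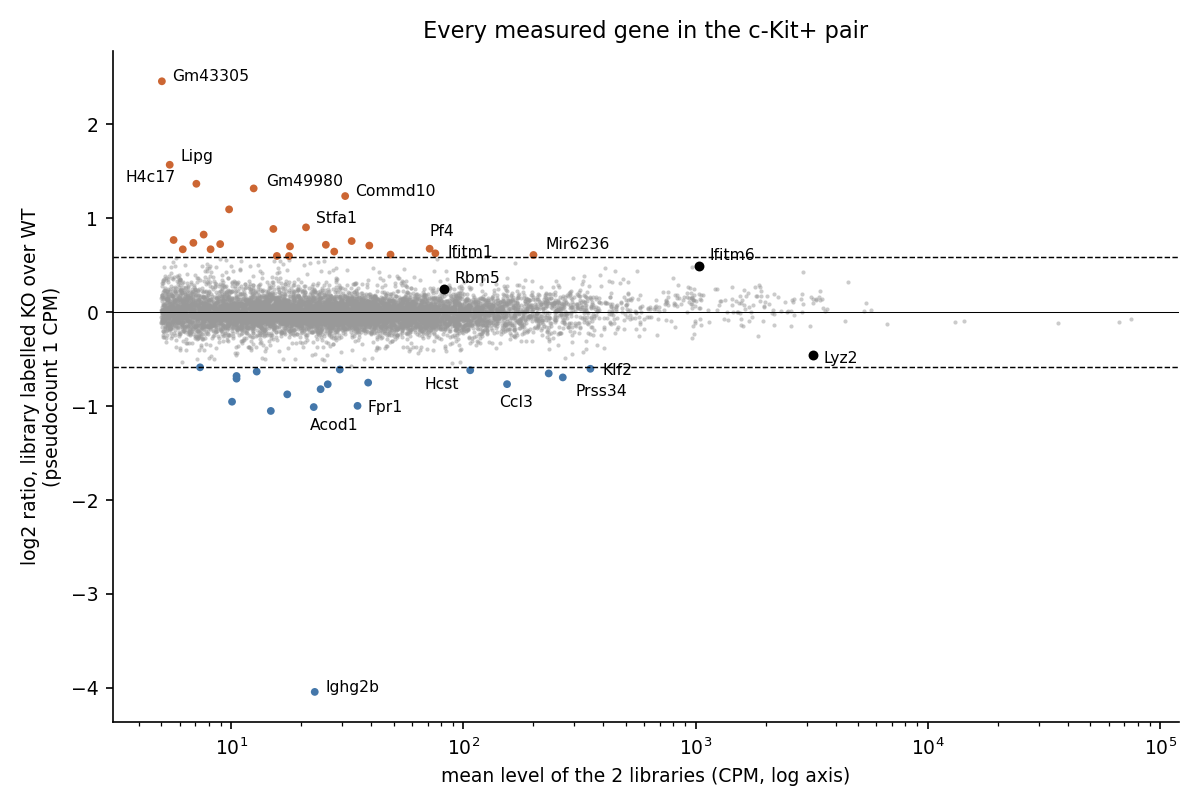
Each point is a gene, with the mean level of the WT and KO c-Kit+ libraries in CPM (log axis) against the log2 ratio of KO over WT with a pseudocount of 1 CPM. Dashed lines mark 1.5-fold; the 25 genes above are orange, the 19 below are blue, and 3 other named genes are black.

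The genes of the replication-dependent histones were higher in KO almost without exception. These genes code for the core and linker histones that package newly copied DNA, are made mainly in S phase, and give messages that mostly end in a stem-loop rather than a poly(A) tail, so that an oligo-dT library captures only a part of them. Of 46 measured histone genes 45 were higher and 5 were past 1.5-fold, and the median log2 ratio was 0.44 against -0.007 over all genes. Their summed level was 2700 CPM in WT against 3594 CPM in KO. H2ac24, the most abundant of those named here, had 803 CPM in WT against 1121 CPM in KO. H1f1, a linker histone, had 61.5 and 91.5 CPM. H2ac4, H2ac20, H2ac6 and H2bc11, which code for H2A and H2B, were all past 1.5-fold. H2ac4 had 29.6 CPM in WT against 49.0 CPM in KO. H2ac20 had 38.1 and 58.9 CPM, and H2bc11 had 21.4 and 34.1 CPM. H4c17, an H4 gene, had 329 UMIs in WT and 1076 in KO, a ratio of 3.03 (2.68 to 3.44). H4c18, another H4 gene, was the one lower member, with 9.79 CPM in WT against 8.57 CPM in KO. Histone genes have near-identical copies, so how reads were divided among single members is uncertain.

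The promoters of 4 of these genes are shown because they were higher together. H2ac4, H2ac20 and H1f1 hold both of the 2 short elements searched for, and H2bc11 holds CCAAT only. Each is the 150 bases before the RefSeq start (GRCm38.p6), 5′ to 3′ on the gene's strand, with CCAAT (or its complement ATTGG) and TATAAA in capitals.
H2ac4 (chr13:23750938-23751087, plus strand): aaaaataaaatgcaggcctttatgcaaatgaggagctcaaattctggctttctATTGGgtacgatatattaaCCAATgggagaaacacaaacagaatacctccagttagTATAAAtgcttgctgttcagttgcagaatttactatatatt
H2ac20 (chr3:96220881-96221030, minus strand): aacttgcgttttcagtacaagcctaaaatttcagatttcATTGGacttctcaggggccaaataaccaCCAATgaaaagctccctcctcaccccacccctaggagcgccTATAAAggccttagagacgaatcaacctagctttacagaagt
H2bc11 (chr13:22043048-22043197, plus strand): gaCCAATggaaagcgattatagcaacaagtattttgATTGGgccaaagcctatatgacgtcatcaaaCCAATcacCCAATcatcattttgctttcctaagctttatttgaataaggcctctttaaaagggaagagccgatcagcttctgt
H1f1 (chr13:23763518-23763667, plus strand): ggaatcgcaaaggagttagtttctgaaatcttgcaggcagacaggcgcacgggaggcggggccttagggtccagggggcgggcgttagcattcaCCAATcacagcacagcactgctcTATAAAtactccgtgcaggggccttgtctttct
Within the 250 bases before the start, searched on both strands, CCAAT was present in 35 of the 40 promoters of 39 histone genes in the table (87.5%), against 33.8% of all 32851 promoters. TATAAA was present in 20 of 40 (50%), against 12.4% of all promoters. A match describes the letters only.

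The histone difference was seen in most cell classes. All measured members were higher in erythroid-like (19 of 19), monocyte-like (11 of 11), preneutrophil-like (11 of 11), B lineage-like (10 of 10), primary granule progenitor-like (10 of 10) and secondary granule neutrophil-like cells (7 of 7). H2ac24 had 2156 CPM in WT erythroid-like cells and 2774 CPM in KO, and 860 and 1284 CPM in the stem-like class. The direction was the opposite in T and NK-like cells (0 of 5 higher, median -0.58) and plasma-like cells (0 of 3 higher, median -0.80). In T and NK-like cells Stmn1 (444 CPM in WT, 162 in KO) and Pclaf (189 and 69.1), both typical of dividing cells, were also lower, as were 12 of 14 S phase genes (median -0.36). In preneutrophil-like cells, where histones were higher, 28 of 32 S phase genes were lower (median -0.12). Over all cells, of 48 S phase genes 27 were higher, with a median of 0.01, and of 51 G2 and mitosis genes 37 were higher, with a median of 0.03. Composition-matched, the histone median was 0.40, that of S phase genes -0.05 and that of G2 and mitosis genes 0.01. Histone transcripts are short, with a median length of 616 bases in the annotation, and transcript length moved with the ratio across all genes. With genes divided by length into 4 equal groups, 65.2% of the shortest were higher in KO, against 34.7% of the longest, with medians of 0.05 and -0.04. The part of transcript length in the histone result was not tested.

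**Figure D2:**
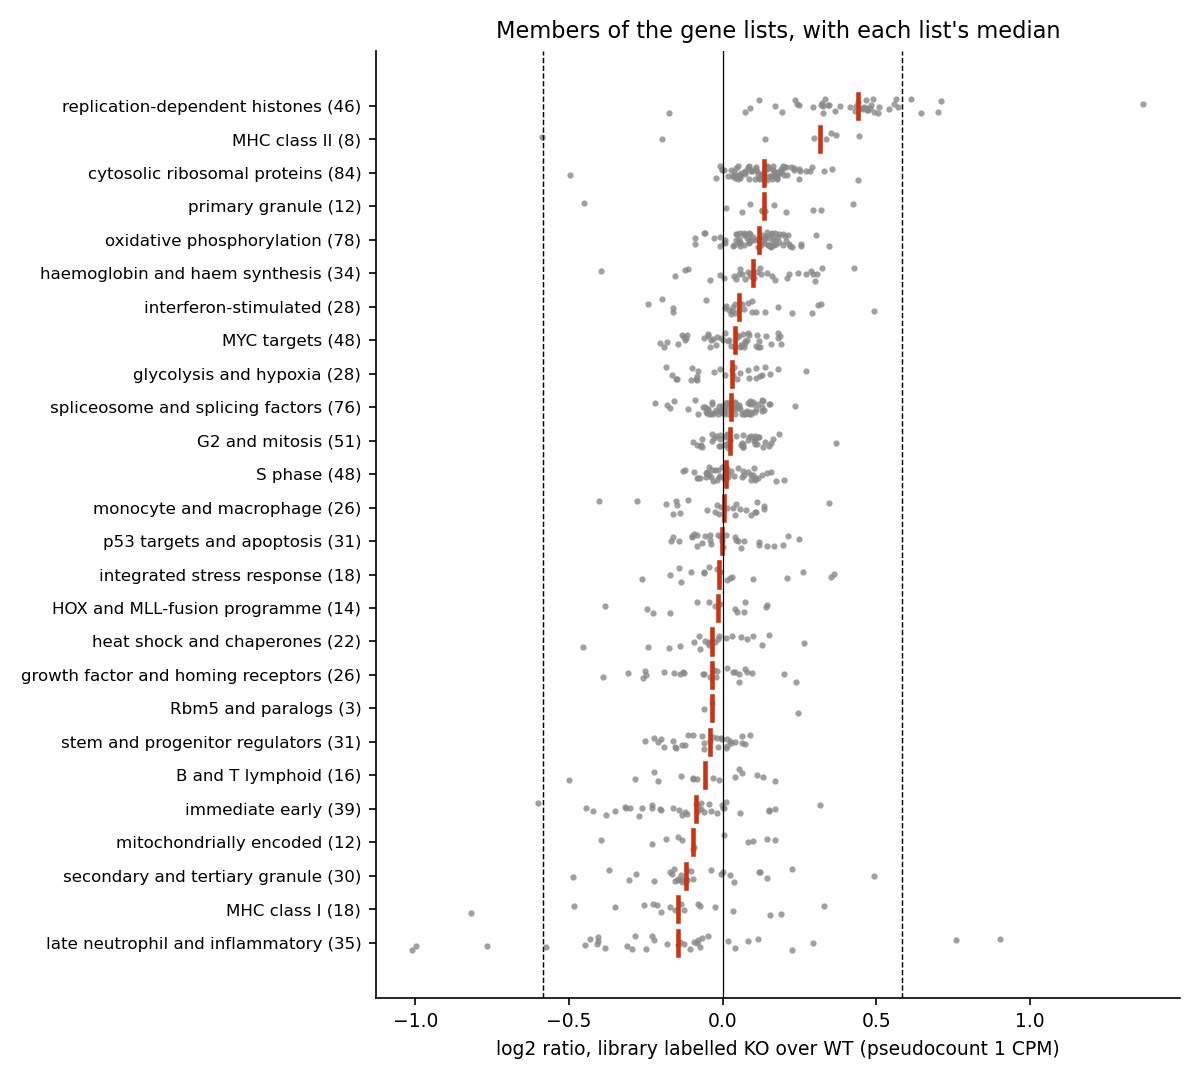
Each point is a measured gene of a list and its log2 ratio, KO over WT c-Kit+, with the median of each list marked. The histone members lie to the right of 0 except H4c18, while the lists of HOX, MYC and S phase genes centre near 0.

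The interferon-induced transmembrane genes, a cluster on chromosome 7 whose products hinder the entry of enveloped viruses, were higher in KO. Ifitm1 had 59.2 CPM in WT against 92.1 CPM in KO, a ratio of 1.55 (1.504 to 1.607). Ifitm2 had 342 and 474 CPM. Ifitm3 had 335 and 440 CPM. Ifitm6, a gene of maturing neutrophils, had 857 and 1207 CPM, a ratio of 1.41 (1.40 to 1.42), and composition-matched its log2 ratio was 0.64. Of 28 other interferon-stimulated genes 23 were higher, with a median of 0.05 against -0.007 over all genes and a highest log2 ratio of 0.49, that of Rsad2. Rsad2, an antiviral enzyme (6.56 CPM in WT, 9.62 in KO), and Isg15, a ubiquitin-like modifier (17.7 and 22.4), were among those higher. The list median was above 0 in 5 of the 7 classes where it was read. It was -0.08 in monocyte-like cells (1 of 5 higher) and -0.03 in the unnamed cluster led by Mt2 and Car1. Cxcl10, an interferon-induced chemokine outside that list, had 3.91 and 7.38 CPM, and 10 cells held 26.7% of its WT and 43.0% of its KO UMIs.

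The promoters of the 4 Ifitm genes are shown to the same rule, with the core of the interferon response element, GAAANNGAA (either strand), in capitals.
Ifitm1 (chr7:140967926-140968075, plus strand): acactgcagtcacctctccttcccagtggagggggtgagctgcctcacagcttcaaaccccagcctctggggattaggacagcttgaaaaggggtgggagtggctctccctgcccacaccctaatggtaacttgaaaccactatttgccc
Ifitm2 (chr7:140955962-140956111, minus strand): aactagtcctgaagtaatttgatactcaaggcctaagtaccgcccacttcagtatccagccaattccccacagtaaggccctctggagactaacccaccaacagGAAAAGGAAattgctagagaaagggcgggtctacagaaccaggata
Ifitm3 (chr7:141010745-141010894, minus strand): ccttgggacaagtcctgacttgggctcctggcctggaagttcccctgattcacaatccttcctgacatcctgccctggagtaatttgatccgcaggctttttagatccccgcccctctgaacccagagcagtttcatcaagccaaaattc
Ifitm6 (chr7:141016893-141017042, minus strand): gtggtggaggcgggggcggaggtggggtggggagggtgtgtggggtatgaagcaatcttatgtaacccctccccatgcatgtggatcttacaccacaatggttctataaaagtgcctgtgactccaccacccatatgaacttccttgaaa
In the 250 bases before the start the element was present in 1 of 4, Ifitm2, against 7.13% of all promoters. No match says only that these letters are not in this window.

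By class, Ifitm6 and Ifitm3 were higher in KO in 12 of 12, Ifitm1 in 10 of 11 and Ifitm2 in 9 of 12 classes. The preneutrophil-like class, named for cells between the primary and secondary granule stages, differed most for Ifitm6. It is a cluster of 366 WT and 412 KO cells that raised 4 of 6 preneutrophil markers, without Mki67 and Top2a. With no gene left out of clustering, the name went to a cluster of 1864 WT and 1823 KO cells that raised all 6. In the cluster of 366 and 412 cells Ifitm6 had 252 CPM in WT against 790 CPM in KO. Ifitm3 had 142 and 374 CPM, and Ifitm2 had 198 and 447 CPM. An Ifitm6 UMI was found in 63.9% of WT and 91.7% of KO preneutrophil-like cells, and in 29.3% and 65.4% of them at 2000 UMIs per cell. In secondary granule neutrophil-like cells Ifitm6 had 1754 CPM in WT against 2773 CPM in KO, and in late neutrophil-like cells 2845 and 4122 CPM. Ifitm1 was most abundant in basophil-like and mast-like cells, at 1278 CPM in WT against 1929 CPM in KO, and in the stem-like class, at 317 and 439 CPM. Its one lower class was T and NK-like, with 27 UMIs in WT and 5 in KO.

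Genes of antigen presentation split by class of MHC molecule. MHC class II presents peptides to helper T cells and is made by B cells, dendritic cells and some monocytes, while class I is made by nearly all cells. Of 8 measured class II genes 6 were higher in KO, with a median of 0.32. The invariant chain Cd74 had 221 CPM in WT against 279 CPM in KO, H2-Aa had 107 and 132 CPM, H2-Ab1 had 63.3 and 86.5 CPM, and H2-Eb1 had 74.6 and 95.6 CPM. H2-Ob and H2-DMb2, which act on peptide loading, were lower, with log2 ratios of -0.20 and -0.59. Of 18 class I genes 14 were lower, with a median of -0.14. H2-K1 had 421 CPM in WT against 330 CPM in KO, H2-D1 had 307 and 267 CPM, and B2m, the shared light chain, had 621 and 520 CPM. H2-Q7 differed most, at 31.2 CPM in WT against 17.3 CPM in KO, though it shares sequence with neighbouring Q genes such as H2-Q6 (9.53 and 6.54 CPM). The class I median was below 0 in 12 of 12 cell classes, and H2-K1 was lower in 12 of 12. H2-K1 had 965 CPM in WT against 736 CPM in KO in the stem-like class, and 740 and 543 CPM in monocyte-like cells.

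The class II difference was not in B lineage-like cells, where 1 of 9 genes was higher and the median was -0.10. It was not in plasma-like cells either, where 0 of 3 were higher (median -0.18). In T and NK-like cells 4 of 4 were higher (median 1.11), in the stem-like class 5 of 5 (median 1.05), and in monocyte-like cells 5 of 5 (median 0.75). In T and NK-like cells Cd74 had 120 CPM in WT (86 UMIs) and 280 CPM in KO (223 UMIs). The B lineage markers summed to 91.0 CPM in WT and 225 CPM in KO in that class. The part of B cell RNA in its class II values was not tested. In the stem-like class Cd74 had 218 CPM in WT (1212 UMIs) and 509 CPM in KO (3553 UMIs). There H2-Eb1 had 75.7 and 183 CPM, H2-Aa had 144 and 299 CPM, and H2-DMa, a peptide-loading factor, had 109 and 110 CPM. The share of stem-like cells with a Cd74 UMI was 18.1% in WT and 25.9% in KO, and 9.04% and 14.5% at 2000 UMIs per cell. Some cells of this class carried genes of B or dendritic cells. In the 467 WT and 602 KO cells without a UMI of Cd79a, Cd79b, Ms4a1, Itgax or Xcr1, Cd74 had 200 and 341 CPM, a log2 ratio of 0.77 in place of 1.22. There H2-Eb1 had 69.4 and 113 CPM. In monocyte-like cells Cd74 had 443 CPM in WT against 780 CPM in KO.

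Ribosomal protein genes and nuclear genes of oxidative phosphorylation were slightly higher as groups. Of 84 cytosolic ribosomal protein genes 79 were higher in KO, with a median of 0.13. Rps6, a protein of the small subunit, had 376 CPM in WT against 472 CPM in KO. Of 78 oxidative phosphorylation genes 71 were higher, with a median of 0.12, and Cox4i1, a subunit of cytochrome c oxidase, had 860 CPM in WT against 1026 CPM in KO. Rps6 and Cox4i1 were each higher in 12 of 12 classes. The ribosomal list median was above 0 in 11 of 12 classes, and was -0.05 in plasma-like cells. The oxidative phosphorylation median was above 0 in 8 of 12 classes. It was -0.09 in T and NK-like, -0.08 in erythroid-like and -0.08 in plasma-like cells, and -0.04 in the unnamed cluster led by Mt2 and Car1. Composition-matched, the medians were 0.05 for ribosomal and 0.07 for oxidative phosphorylation genes. The 12 measured mitochondrially encoded genes had a median of -0.10, and 7 of them were lower. Ribosomal and oxidative phosphorylation transcripts had median lengths of 1076.5 and 1087.5 bases, and the 1993 shortest genes outside the lists had a median of 0.04, with 63.7% higher. The part of transcript length in these results was not tested.

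Haemoglobin UMIs were more frequent in the named classes that are not erythroid. The haemoglobin share of UMIs in the 10 other named classes was 1.71 times (late neutrophil-like) to 7.61 times (T and NK-like) as high in KO as in WT. In erythroid-like cells it was 11.3% in WT and 11.7% in KO. The unnamed cluster led by Mt2 and Car1, which carries erythroid markers (6706 and 6410.3 CPM in sum), had 0.0651% and 0.127%. A UMI of Hbb-bs, an adult beta-globin gene, was found in 39.7% of all WT cells and 61.5% of all KO cells, and in 19.1% and 32.4% at 2000 UMIs per cell. Of 34 genes of haemoglobin and haem synthesis 28 were higher over all cells, with a median of 0.10. The part of free RNA in the low levels given here was not tested.

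Several regulators and signalling genes of leukocytes were lower in KO in nearly every class. Klf2, a transcription factor of quiescent leukocytes, had 424 CPM in WT against 279 CPM in KO, a ratio of 0.66 (0.65 to 0.67). It was lower in 12 of 12 classes, from 168 to 93.0 CPM in primary granule progenitor-like cells to 592 to 529 CPM in T and NK-like cells. Klf6, a related factor, had 377 CPM in WT against 281 CPM in KO and was also lower in 12 of 12 classes. Hcst, which codes for the signalling adaptor DAP10, had 130 CPM in WT against 84.1 CPM in KO. Hcst was lower in 17 of 17 clusters, among them late neutrophil-like cells, with 298 CPM in WT against 192 CPM in KO. Tmcc1, a protein of the endoplasmic reticulum membrane, had 285 CPM in WT against 181 CPM in KO, and was lower in 16 of 17 clusters. Per2, a component of the circadian clock, had 49.0 and 28.7 CPM. The list of 39 immediate early genes, which include Klf2, had 32 members lower and a median of -0.09. Composition-matched, 24 were lower and 15 higher, with a median of -0.05. Its median was above 0 in 1 of 12 classes, the stem-like class (15 of 29 higher, median 0.005). Fos (436 CPM in WT, 438 in KO) and Egr1 (114 and 107 CPM), which are induced within minutes of a stimulus, differed little, and Fosb had 196 and 158 CPM.

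Several single inflammatory genes were lower as well. The list of late neutrophil and inflammatory genes was split about evenly within late and secondary granule neutrophil-like cells. It was mostly higher in preneutrophil-like and mostly lower in primary granule progenitor-like cells. Of its 30 members measured within late neutrophil-like cells, 15 were higher and 15 lower (median 0.0004). In secondary granule neutrophil-like cells 7 were higher and 8 lower, in preneutrophil-like cells 10 and 3, and in basophil-like and mast-like cells 7 and 12 (median -0.18). In primary granule progenitor-like cells 1 was higher and 9 lower (median -0.08), and in monocyte-like cells 4 and 11 (median -0.11). The list median was above 0 in 4 of 12 classes. Fpr1, the receptor for bacterial formyl peptides, had 46.9 CPM in WT against 23.02 CPM in KO, and in late neutrophil-like cells 431 and 246 CPM. Acod1, which makes itaconate in stimulated myeloid cells, had 30.6 CPM in WT against 14.7 CPM in KO, and in basophil-like and mast-like cells 760 and 360 CPM. Acod1 was lower in 7 and higher in 4 of 11 measured clusters, and composition-matched its log2 ratio was -0.73 in place of -1.01. Nfkbia, which restrains NF-kB, had 478 CPM in WT against 198 CPM in KO in late neutrophil-like cells. The chemokine Ccl3 had 194 CPM in WT against 114 CPM in KO, and in basophil-like and mast-like cells 8454 and 6111 CPM. Composition-matched, the log2 ratio of Ccl3 was -0.46 in place of -0.77. Il6 had 13.6 CPM in WT against 6.55 CPM in KO, and 95.7% of its WT UMIs lay in basophil-like and mast-like cells, which were 2.63% of WT and 1.96% of KO cells. Within them Il6 had 726 and 457 CPM, and composition-matched its log2 ratio was -0.57 in place of -0.95. Lyz2, the lysozyme of myeloid cells, had 3714 CPM in WT against 2713 CPM in KO and was lower in 17 of 17 clusters. In secondary granule neutrophil-like cells, its main source, Lyz2 had 7739 CPM in WT against 6121 CPM in KO.

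Genes of the granule stages differed over all cells, and by less when clusters had the same weight in both libraries. Of 12 primary granule genes 11 were higher in KO (median 0.13), and of 30 secondary and tertiary granule genes 23 were lower (median -0.12). Of 35 late neutrophil and inflammatory genes 27 were lower (median -0.15). Composition-matched, the 3 medians were -0.02, -0.003 and -0.05. Prtn3, proteinase 3, had 2480.3 CPM in WT against 3332 CPM in KO over all cells, and 13217 and 14190 CPM within primary granule progenitor-like cells. Mpo, myeloperoxidase, had 929.9 and 1017 CPM over all cells, and 4248 and 3891 CPM within that class. Mmp8, a collagenase of secondary and tertiary granules, had 321 CPM in WT against 228 CPM in KO. Prss34 and Mcpt8, proteases of basophils, had log2 ratios of -0.69 and -0.53 over all cells, and composition-matched of -0.26 and -0.15.

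Shares of cells differed between the libraries by at most a few points. Classes were named from marker genes after clustering both libraries together. Secondary granule neutrophil-like cells were the largest class, at 36.04% of WT and 33.3% of KO cells (-2.73 ± 1.14 points, half-width of the counting interval). Late neutrophil-like cells were 15.6% and 13.5% (-2.11 ± 0.85), and basophil-like and mast-like cells 2.63% and 1.96% (-0.66 ± 0.36). Erythroid-like cells were 4.43% and 6.30% (1.87 ± 0.54), stem-like and multipotent progenitor-like cells 4.49% and 5.46% (0.98 ± 0.52), and primary granule progenitor-like cells 8.80% and 9.57% (0.77 ± 0.69). T and NK-like cells were 1.41% and 1.79% (0.38 ± 0.30). Monocyte-like, preneutrophil-like, B lineage-like, plasma-like, plasmacytoid dendritic-like and stromal-like cells differed within their counting intervals. Several of the small differences depended on the setting. Primary granule progenitor-like was 0.50 ± 0.76 and T and NK-like 0.28 ± 0.34 points with a stricter cell filter, and stem-like was 0.48 ± 0.47 at clustering resolution 1.2. With the stricter filter B lineage-like was -0.90 ± 0.65 and monocyte-like 0.87 ± 0.79. With a stricter cell filter the secondary granule difference was 0.61 points, and the preneutrophil difference, 0.18 points here, was -2.56. With doublets left out, the late neutrophil difference was -1.01 points, in a class that then covered 1020 WT cells in place of 2024. Ifitm6 and Mmp8 are among the 6 markers of the secondary granule class and differ between the libraries. Another 2 clusters stayed unnamed, both led by Mt2, a metallothionein, with 3.23% of WT and 3.90% of KO cells. How 1 mouse differs from the next in these shares was not measured.

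**Figure D3:**
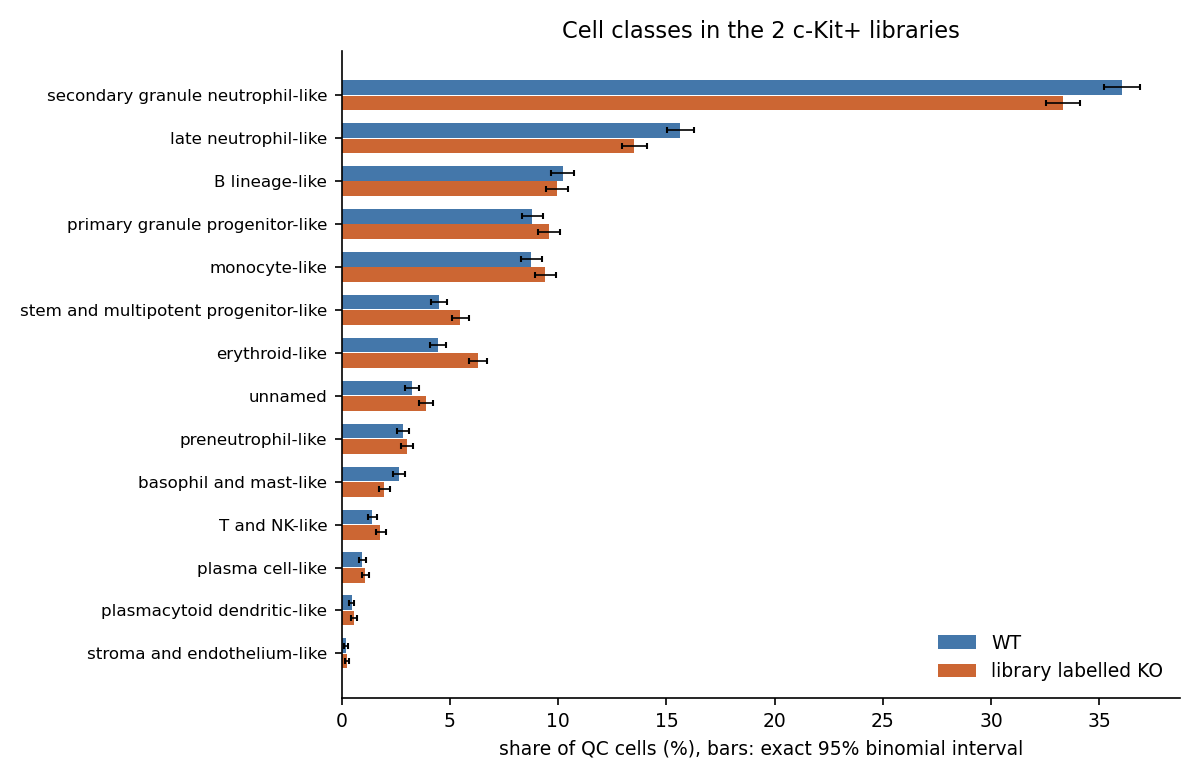
Share of cells (percent) in each named class in the WT and KO c-Kit+ libraries, with exact binomial intervals at 95% that cover counting error only. Secondary granule neutrophil-like cells are the largest class in both, at 36.04% and 33.3%.

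The megakaryocyte gene Pf4, platelet factor 4, had 54.8 CPM in WT against 88.2 CPM in KO over all cells, a ratio of 1.61 (1.56 to 1.67). Pf4 leads the cluster that was named stem-like, so its level there, 868 and 1217 CPM, is given as a description. At resolution 1.2 an unnamed cluster led by Pf4 and Cavin2 (223 WT and 280 KO cells) stood apart from a stem-like cluster of 479 and 573 cells. Values given for the stem-like class are therefore of a mixed cluster. The 7 megakaryocyte markers summed to 71.0 CPM in WT against 106 CPM in KO over all cells, and Pf4 made up most of both sums. Without it the other 6 markers summed to 16.2 and 17.8 CPM, with 4 of the 6 higher. Genes of stem cells differed little in level. Of 31 regulators of stem and progenitor cells 21 were lower, with a median of -0.04. Of 26 growth factor and homing receptors 16 were lower, with a median of -0.04, and Flt3, the receptor of early lymphoid and dendritic progenitors, had a log2 ratio of 0.24.

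The genes that the study's design names for leukaemia differed little between these libraries. Of 14 measured genes of the HOX and MLL-fusion programme 8 were lower, with a median of -0.02, and 12 were lower composition-matched, with a median of -0.09. Meis1, a partner of HOX proteins, had 42.2 CPM in WT against 46.6 CPM in KO. Hoxa9 had 5.204 and 5.410 CPM (488 and 547 UMIs), a ratio of 1.04 (0.92 to 1.18), and Hoxa10 was below the level filter. Pbx3, another HOX partner, had 48.1 CPM in WT against 36.7 CPM in KO, a log2 ratio of -0.38. Myc had 27.2 and 26.5 CPM, and its 48 target genes had a median of 0.04, with 30 higher. Of 76 spliceosome genes 50 were higher, with a median of 0.03 and log2 ratios from -0.22 to 0.23. The 31 measured genes of p53 response and apoptosis had a median of -0.002, and the 22 heat shock genes -0.03.

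A few genes differed in several cell classes at once, some of them far more than the rest. Commd10, a member of the COMMD family that acts in endosomal sorting, had 1690 UMIs in WT and 4434 in KO, or 18.02 and 43.9 CPM. It was higher in 12 of 12 classes, from 22.1 to 27.8 CPM in erythroid-like cells to 3.77 to 32.5 CPM in late neutrophil-like cells. Commd10 UMIs were found in 9.95% of WT cells and 23.7% of KO cells, and in 2.90% and 8.38% at 2000 UMIs per cell. Gm43305, a gene model, had 80 UMIs in WT and 930 in KO, a ratio of 10.8 (8.57 to 13.7), with 3.49 and 43.5 CPM in B lineage-like cells. Lipg, endothelial lipase, had 210 and 872 UMIs, most of them in secondary granule neutrophil-like cells in KO. Around Commd10, Lipg and Gm43305 the 7, 8 and 16 other measured genes within 1 Mb included 0 past 1.5-fold. Mir6236, a microRNA entry, had 158 CPM in WT against 242 CPM in KO and was higher in 17 of 17 clusters. Rasgrp2, an activator of Rap1, had 136 and 196 CPM, which is not past 1.5-fold, and was also higher in 17 of 17 clusters.

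The Stfa1 locus held 3 genes past 1.5-fold on chromosome 16. Stfa1 and Cstdc5, stefin-type inhibitors of cysteine proteases, had 14.3 and 27.7 CPM, and 5.204 and 10.01 CPM. Slc15a2, a peptide transporter, had 10.4 CPM in WT against 20.01 CPM in KO. Among the 21 other measured genes within 1 Mb of Stfa1, Cstdc5 and Slc15a2 were the 2 past 1.5-fold, and Stfa2l1, Cstdc4 and Cd86 were lower, at -0.23, -0.31 and -0.26. Stfa1 had 24.9 CPM in WT against 86.3 CPM in KO in preneutrophil-like cells and 60.1 and 67.0 CPM in late neutrophil-like cells. It is among the leading genes of the preneutrophil-like cluster, so its level there is given as a description. Stfa1 was higher in 10 and lower in 3 of 13 measured clusters, with a cluster median of 0.24 against 0.90 over all cells. Cstdc5 was higher in 6 and lower in 1 of 7. The stefin genes have near-identical copies, so their counts are uncertain.

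The immunoglobulin heavy chain differences rested on few cells. Ighg2b had 4129 UMIs in WT and 175 in KO, and 40.0% of the WT UMIs came from 1 cell and 95.3% from 10 cells. Ighg2c had 24 UMIs in WT and 624 in KO, and 85.9% of the KO UMIs came from 1 cell. Ighg3 had 2142 and 1214 UMIs, with 96.6% of the WT UMIs in 1 cell. Plasma-like cells held 96.0% of the WT Ighg2b UMIs.

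**Figure D4:**
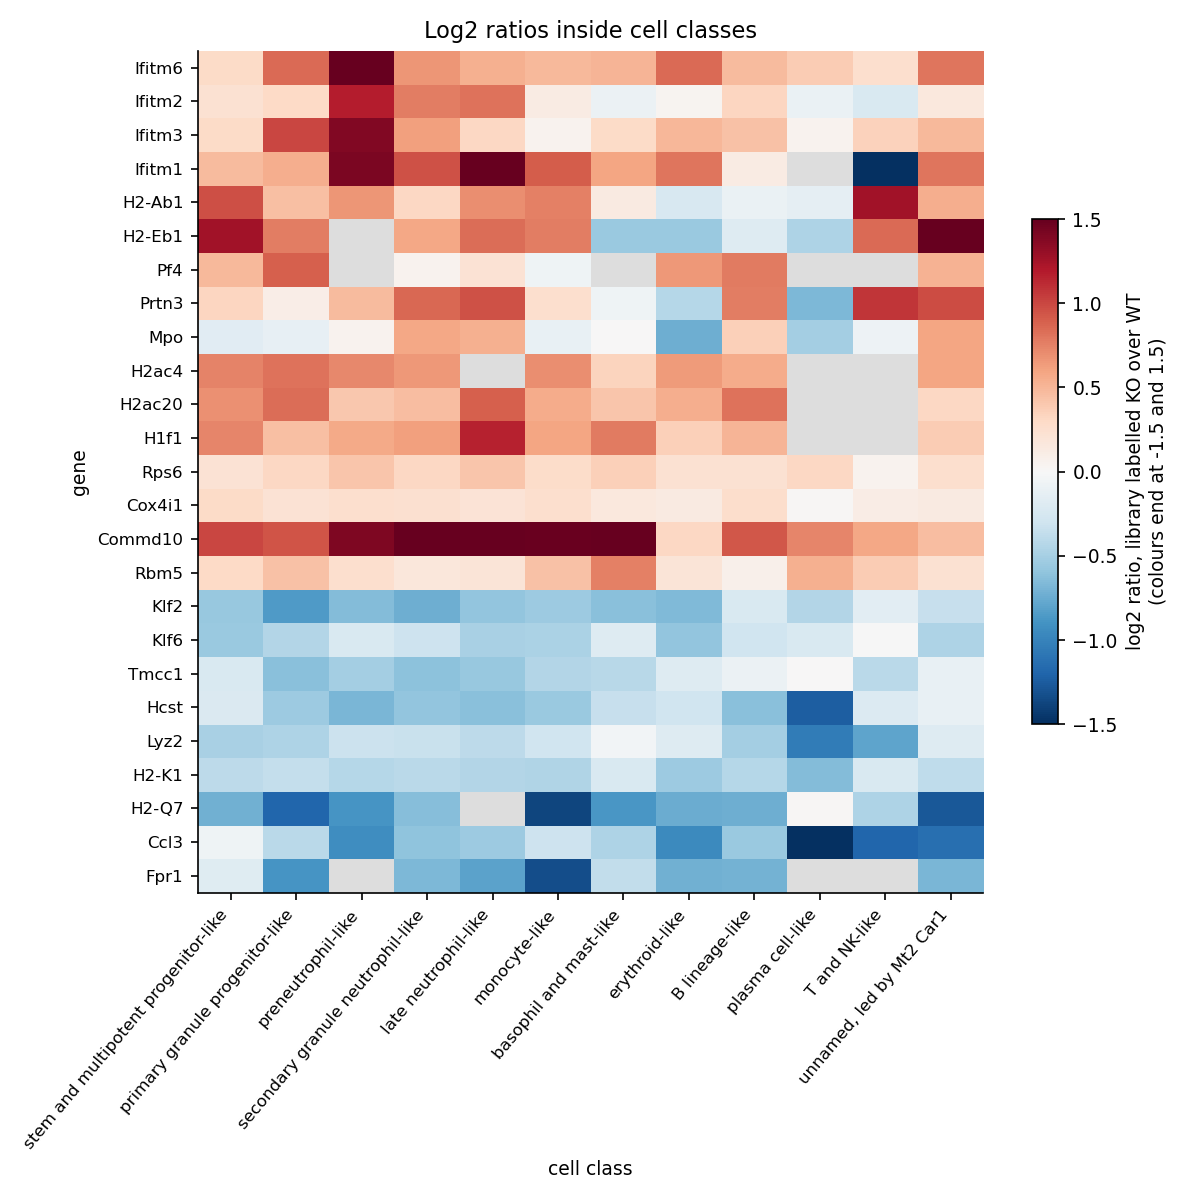
Log2 ratio of KO over WT c-Kit+ for named genes (rows) in each cell class (columns), with grey squares where the count was too low for a ratio and colours that end at -1.5 and 1.5. Klf2 and Lyz2 are below 0 and Ifitm6, Commd10 and Rbm5 above 0 in all 12 classes.

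Further genes differed within single classes. In late neutrophil-like cells Wfdc17, a small antiprotease-type protein, had 64.3 CPM in WT against 249 CPM in KO. In primary granule progenitor-like cells Mif, a cytokine, had 367 and 569 CPM, and Cd52, a surface glycoprotein, had 609 and 406 CPM. In T and NK-like cells Gzma, a granzyme of cytotoxic cells, had 238 CPM in WT against 489 CPM in KO. In plasma-like cells Ctla4, an inhibitory receptor, had 144 and 258 CPM, and Elane, a neutrophil enzyme, had 1512 and 583 CPM. In B lineage-like cells Cd86, a costimulatory ligand, had 346 and 230 CPM, while Prtn3, which B cells lack, had 477 and 816 CPM. In erythroid-like cells Jchain, a plasma cell gene, had 271 CPM in WT against 30.6 CPM in KO, and its log2 ratio of -3.10 was 0.28 with doublets left out. With doublets left out, the log2 ratio of Prtn3 in B lineage-like cells was 1.40 in place of 0.77, and that of Elane in plasma-like cells -1.46 in place of -1.37. Elane, Prtn3 and Jchain are products of other classes, and the part of free RNA in their values was not tested.

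The leukaemia libraries, which share no sample with the c-Kit+ pair, gave other values for these genes. Xist had 1450 CPM in WT and 729 CPM in KO leukaemia, with 14 and 21 UMIs of Ddx3y, the pattern of female cells. The c-Kit+ pair had the male pattern, and the part of sex in differences between the pairs was not tested. Over all genes the leukaemia median was -0.38, with 25.4% higher. Histone genes had a median of -0.53 there, with 8 of 46 higher, near that background. Class II genes had a median of -1.56, with 0 of 8 higher. Klf2 had a log2 ratio of 6.09 in leukaemia and -0.60 in c-Kit+ cells. Immediate early genes had a median of 3.15 there, with 37 of 39 higher. Of the 44 genes past 1.5-fold in c-Kit+ cells, 35 were measured in leukaemia. Of the 21 that were higher in c-Kit+ cells, 7 were past 1.5-fold higher and 8 past it lower in leukaemia. Of the 14 that were lower, 6 were higher and 4 lower. Over all genes, as given above, 9.49% were higher and 35.1% lower in leukaemia. Whether these differences exceed the spread between mice was not tested.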

How the data were processed

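RNA was counted in single cells of mouse bone marrow, in 1 WT and 1 KO library labelled ckit+. The deposited files are UMI counts of each gene in each cell, not normalized, which the authors made with Cell Ranger 7.1.0 against mm10 per the submitters' processing notes. The gene annotation, and any removal of doublets or of free RNA, are not given in the sources used here. How reads shared by near-identical gene copies were counted is not given either.

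The filter on barcodes (at least 500 genes, at least 1000 UMIs, no more than 10% mitochondrial UMIs) left 12948 of 13480 WT and 13708 of 14577 KO barcodes. Scrublet (in scanpy 1.11.5, expected rate 0.08) called 4.46% of the WT and 3.09% of the KO cells doublets, and these were kept, with an alternative that leaves them out. UMIs were summed over cells and scaled to CPM, and the log2 ratio used a pseudocount of 1 CPM. Genes with a mean under 5 CPM were left out. Intervals are exact, from the conditional binomial for ratios and Clopper-Pearson for shares, at 95% and for counting error only. With 1 library per group there was no test and no p-value. Both libraries were clustered together (2000 variable genes, 30 components, 15 neighbours, Leiden resolution 0.6, igraph 0.11.9, scikit-learn 1.9.0). Left out were the lists of cell cycle, histone, MYC, p53, splicing, interferon, metabolic, ribosomal, mitochondrial, early response, stress, HOX, Rbm5 and sex-linked genes. The lists of MHC, granule, inflammatory, monocyte, haemoglobin, stem regulator, receptor and lymphoid genes were not left out. A cluster took a class name when at least 3 markers and 50% of a marker set stood 1.5-fold above the other cells, from 50 CPM upwards. Composition-matched sums average 17 clusters with 100 or more cells of each library, with the same weights. Within classes, lists were read at 50 CPM or more.

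Named were Rbm5, Rbm6, Rbm10 and genes fixed by name, the 15 highest and 15 lowest log2 ratios at a mean of 50 CPM or more, up to 4 members of each list by size of ratio, and 3 genes each way in each class at 100 CPM or more. Genes past 1.5-fold below 50 CPM, and Fos, Egr1, Fosb, B2m, H2-D1, H2-DMa, H2-Ob, H4c18, Stfa2l1 and Cstdc4, were chosen after their values were seen. The 27 gene lists, the 17 marker sets and the genes were chosen with earlier results of these data known. Positions come from GENCODE M21 (GRCm38), which matched 51948 of 56941 features, and promoters from RefSeq (GRCm38.p6). The ratio script was tested on simulated data.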

Additional observations from a re-analysis of the deposited data

Results flagged for a closer look

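For 14 genes the c-Kit+ pair and the leukaemia pair were both past 1.5-fold, in opposite directions. Over all genes 9.49% were past 1.5-fold higher and 35.1% lower in leukaemia, so a count of this kind has a high background. With 1 library per group the difference between the pairs was not tested, and by Xist and Ddx3y the pairs also differ in sex. Lower in KO c-Kit+ cells and higher in KO leukaemia were Acod1, the itaconate enzyme (log2 ratios -1.01 and 3.94), the chemokine Ccl3 (-0.77 and 3.87), the clock gene Per2 (-0.75 and 2.60), Cfap43 (-0.63 and 3.02), the B cell factor Tnfsf13b (-0.61 and 0.97) and Klf2 (-0.60 and 6.09). Higher in KO c-Kit+ cells and lower in KO leukaemia were Acp5 (0.60 and -0.67), the chromatin protein Hmga2 (0.67 and -1.05) and Wfdc17 (0.76 and -1.01). Of histone genes the same held for H2ac20 (0.61 and -1.19), H2bc11 (0.65 and -0.77) and H4c17 (1.37 and -0.90), and of stefin-type inhibitors for Cstdc5 (0.83 and -1.25) and Stfa1 (0.90 and -0.84).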

How the results depend on the processing

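The log2 ratio of Rbm5 kept its sign and its side of the 1.5-fold line in all 12 alternatives. Genes past 1.5-fold numbered 25 higher and 19 lower. The higher count was 14 with a pseudocount of 5 CPM, 73 with no level filter, 9 above a mean of 25 CPM, 46 with each cell weighted equally and 62 with cells thinned to 2000 UMIs. The lower count was 34 with no level filter, 9 above 25 CPM, 38 in thinned cells and 7 composition-matched. All 7 were among the 19. The primary granule median reversed, from 0.13 to -0.023, when composition-matched. Of 324 alternative values of the gene lists, 279 moved by less than the limit set for them, 44 moved further and 1 reversed. Of the 44 genes past 1.5-fold, 43 kept their sign in every setting, and Ighg3 did not. Class shares, in points of KO minus WT, moved as follows. Erythroid-like was 2.44 without doublets and 2.54 at resolution 0.3. Late neutrophil-like was -1.01 without doublets, -0.53 at resolution 0.3 and -0.93 at 1.2. Secondary granule neutrophil-like was -4.18 at resolution 0.3 and 0.61, reversed, with the stricter cell filter. Preneutrophil-like was -0.54 without doublets, -1.10 with no gene left out of clustering, -0.89 at resolution 1.2 and -2.56 with the stricter filter. At resolution 0.3 no cluster took that name. Plasmacytoid dendritic-like was 0.32 at resolution 1.2. Jchain in erythroid-like cells reversed, to 0.28, without doublets. Counting intervals of other classes changed sides of 0 as well. Primary granule progenitor-like, 0.77 ± 0.69, was 0.68 ± 0.69 at resolution 1.2, 0.51 ± 0.66 with no gene left out and 0.50 ± 0.76 with the stricter filter, which also put T and NK-like at 0.28 ± 0.34, B lineage-like at -0.90 ± 0.65 and monocyte-like at 0.87 ± 0.79. Monocyte-like was 0.86 ± 0.68 without doublets and just past its interval with no gene left out. Stem-like stayed above its interval, from 0.48 at resolution 1.2 to 1.24 at 0.3. A class name did not cover the same cells in every setting. Preneutrophil-like was 366 WT cells in the main setting, 1748 at resolution 1.2 and 1864 with no gene left out. Late neutrophil-like was 2024 WT cells in the main setting, 373 at resolution 0.3, 999 at 1.2 and 1020 without doublets. Its KO share over its WT share was 0.86, 0.82, 0.88 and 0.88, in that order. Secondary granule neutrophil-like was 4666 WT cells in the main setting and 6701 at resolution 0.3. Stem-like was 581 WT cells in the main setting, 479 at resolution 1.2 and 1189 at 0.3. Erythroid-like was 573 WT cells in the main setting and 977 at resolution 0.3, and took 2 clusters in place of 1 without doublets. The cause of the other moves was not tested. No paired analysis was possible because each group has 1 library.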
